A study of Mus musculus with 6 samples.

Results

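The genes described here encode the respiratory chain and ATP synthase of the inner mitochondrial membrane, in mouse embryonic stem cells (mESCs) with or without induction of the transcription factor Tfe3. Members were taken by gene symbol: the Nduf, Uqcr and Atp5 families, Cox followed by a digit, the Sdh genes, Cyc1, Cycs and the protein-coding genes of mitochondrial DNA. The rule gave 122 of the 27179 genes in the count table, 13 encoded in mitochondria and 109 in the nucleus, after 3 rows named as pseudogenes were dropped. RNA was sequenced from 3 libraries of cells given 1 µg/mL 4-hydroxytamoxifen (4OHT) for 48 h and from 3 libraries given the ethanol vehicle (EtOH). All 6 libraries carried Tfe3-ERT2, a murine Tfe3 that moves to the nucleus when 4OHT is added, and all cultures were kept in medium with serum and the cytokine LIF. No library came from cells without the fusion, so effects of 4OHT itself and of nuclear Tfe3 cannot be told apart. The promoter of the transgene, the number of clones and whether the replicates are separate cultures are not given in the labels, so p-values measure the spread between these libraries, which may be technical.

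The chain consists of large protein complexes that pass electrons to oxygen and pump protons, and of the ATP synthase that uses the proton gradient. Complex I takes electrons from NADH, complex II from succinate, complex III passes them to cytochrome c, complex IV hands them to oxygen, and complex V makes ATP. Mitochondrial DNA encodes part of the membrane core of complexes I, III, IV and V, while complex II and cytochrome c are wholly nuclear. Pluripotent stem cells are known to draw much of their ATP from glycolysis while they keep a working chain. Tfe3 belongs to the MiT/TFE family, best known for genes of lysosomes and autophagy, and binds E-box DNA.

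Library totals were between 4648374 and 6427880 counts with 4OHT and between 4092877 and 4984364 with EtOH, so that 3 counts in a library correspond to between 0.469 and 0.738 CPM, the count scaled for library size. The Tfe3 row, in which a fusion transcript and the native one cannot be told apart, held 832, 836 and 827 CPM with 4OHT and 1074, 1035 and 1004 CPM with EtOH. The 9 mESC markers followed summed to between 4972 and 5013 CPM with 4OHT and to between 4844 and 4998 CPM with EtOH, and none of them was at 0. Of these 9 markers 7 were called, 4 higher, Esrrb and Klf4 among them, and 3 lower, Tdgf1 and Utf1 among them. Of 10 trophectoderm markers, 7 were high enough to test and all 7 rose, and the list summed to between 990 and 1026 CPM with 4OHT, against between 462 and 485 CPM with EtOH (Cdx2, Elf5 and Plac1 were too low to test). None of the 3 primitive endoderm and 3 fibroblast markers tested was called, with summed levels of 23.2 to 28.1 and 19.5 to 25.3 CPM with 4OHT, against 15.01 to 23.0 and 15.1 to 23.1 CPM with EtOH. The part of a shift in cell types in the results below was not tested, and in bulk RNA fewer cells of a type and less RNA per cell cannot be told apart.

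Most respiratory chain genes differed little between 4OHT and EtOH. Of the 122 members 107 had enough counts to test. The other 15, with at most 18 counts in a library, were ND4L, COX2, COX3, ATP6, ATP8, Sdhd, Uqcr11, the copy genes Ndufa11b, Ndufb4b and Ndufb4c, and the isoforms Cox4i2, Cox6a2, Cox7b2, Cox8b and Cox8c. In edgeR's quasi-likelihood test 7 rose and 22 fell at an adjusted p under 0.05, and 78 were not called. Over all 12345 tested genes, 42% were called, 21.4% higher and 20.6% lower. The members that fell made up 20.6% of those tested, the background share, and those that rose 6.54%. Of the 107 members 32 (29.9%) had no overlap between their 4OHT and EtOH values, 26 lower and 6 higher, and of all tested genes 48.8%, with 23.7% lower and 25.1% higher. Changes were small: the median size of the log2 fold change was 0.11 over tested members and 0.21 over all tested genes, and 15.9% of members differed more than 1.2-fold, against 40.8% of all genes. The median signed log2 fold change was -0.07 over members and -0.00 over all genes. For 46 of the 78 members not called, the 95% interval of the difference lay within 1.2-fold in either direction. The balance of calls depended on the scaling, since upper quartile factors gave 5 rises and 36 falls among members, with 18.8% of all genes higher and 24% lower (12.2% of members' calls higher, against 24.1% with TMM factors). Offsets for gene length gave 9 rises and 17 falls, with 18.7% of all genes higher and 24.1% lower (34.6% of members' calls higher). DESeq2's test called 3 members higher and 12 lower, beside 15.6% and 14.3% of all genes. The 3 were Cox4i1, Cox5a and Ndufa3, and the 12 were CYTB, ND1, ND2, ND4, COX1, Ndufa6, Ndufa7, Ndufaf4, Cox7b, Atp5a1, Atp5c1 and Atp5o, all of them called by edgeR too. At an adjusted p under 0.01 edgeR called 4 and 12 members (16.8% and 15.4% of all genes), and with a minimum of 1.2-fold 5 and 6 (17.2% and 13.2%).

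**Figure D1:**
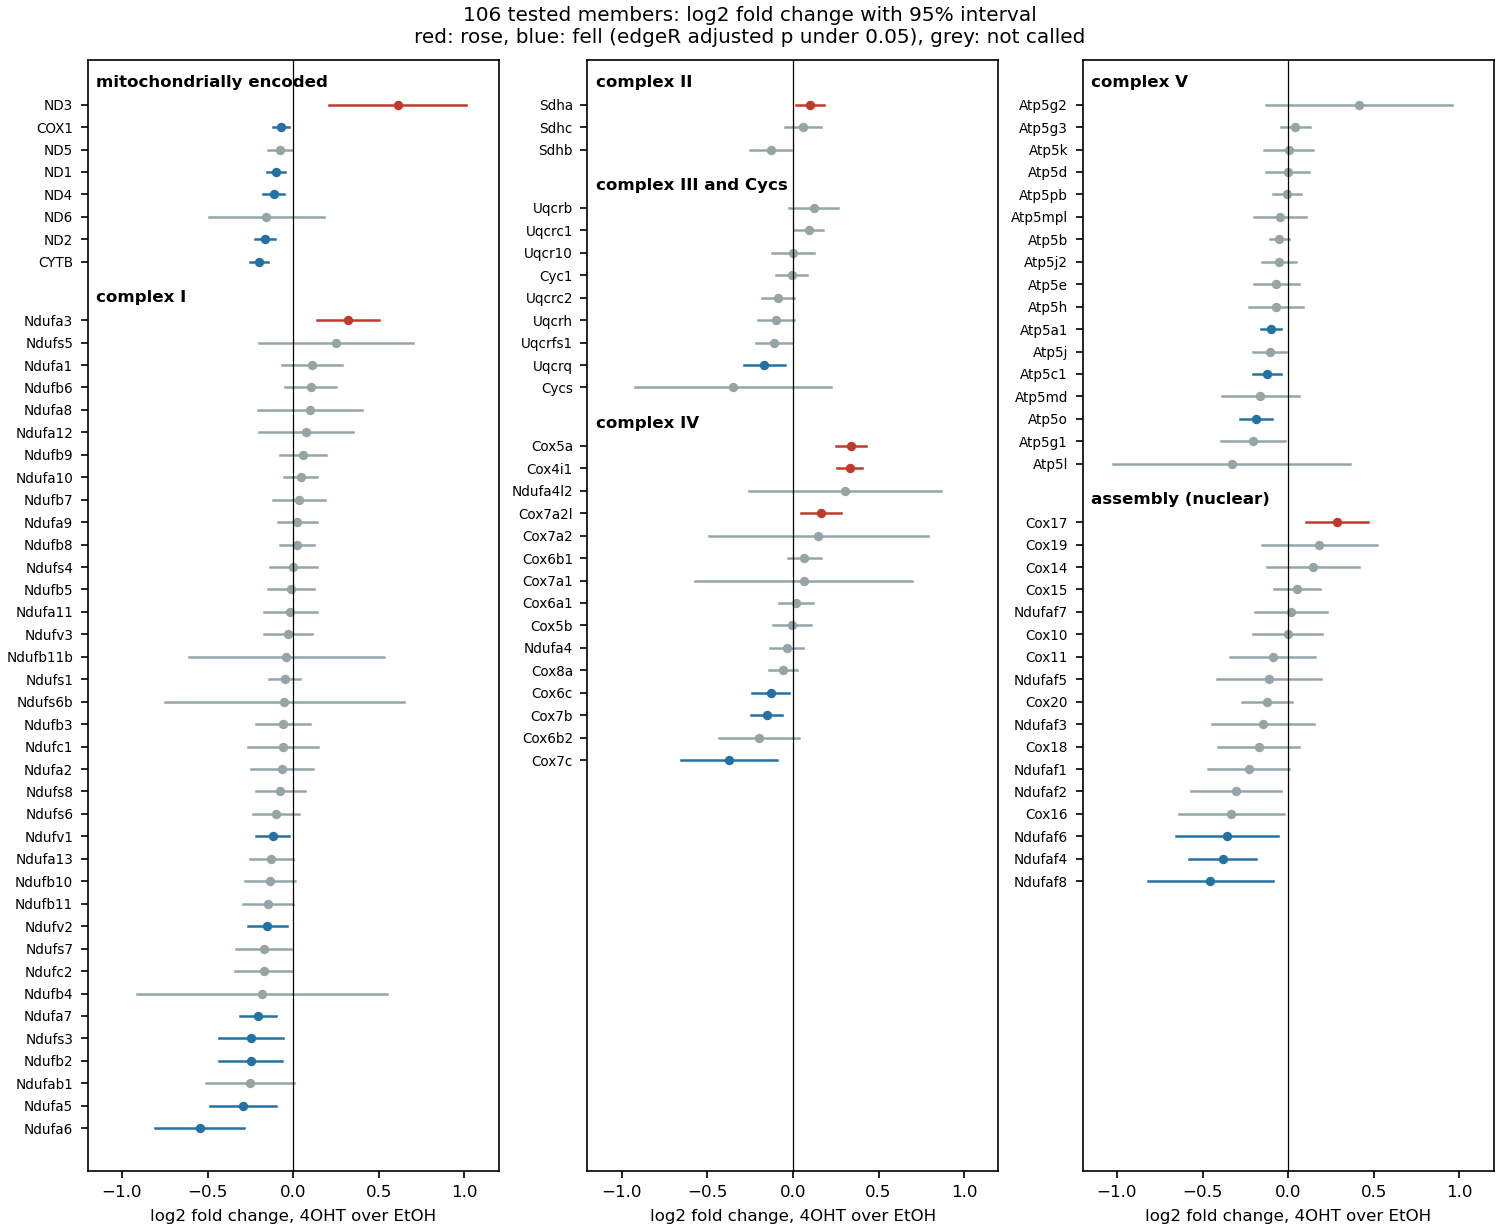
Log2 fold change of 106 of the 107 tested members, 4OHT over EtOH, with its 95% interval, arranged by complex and genome. Most intervals sit close to 0, with Cox4i1 and Cox5a standing to the right in complex IV and Ndufa6 to the left in complex I.

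Summed over the 13 genes, transcripts of mitochondrial DNA were slightly lower with 4OHT, and COX1, CYTB and ND1 were the most abundant members. The 13 genes together took 2.19%, 2.15% and 2.29% of all counts in the 4OHT libraries and 2.42%, 2.34% and 2.42% in the EtOH libraries, with no overlap. Their summed level was 22208 ± 715 CPM with 4OHT and 23961 ± 704 CPM with EtOH (SD, n = 3 each). Of 8 that could be tested 5 fell (62.5%, beside 20.6% of all genes), 1 rose (12.5%, beside 21.4%) and 2 were not called, with a median log2 fold change of -0.11. None of the falls reached 1.2-fold, whereas 13.2% of all genes were called lower by at least that much. The median SE of the log2 fold change was 0.03 over these 8 genes and 0.07 over all tested members, so smaller changes could be called in them. The genes are transcribed as long shared precursors from a single circular genome, so they are not independent of each other.

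CYTB, the mitochondrial subunit of complex III (MT:14145-15288), had 3892, 3915 and 4089 CPM with 4OHT and 4612, 4405 and 4642 CPM with EtOH. Every 4OHT library was below every EtOH library, and CYTB fell by 12.9% (log2 fold change -0.20, SE 0.03, edgeR adjusted p = 2.95e-12). ND2, a membrane subunit of complex I, had 1572, 1496 and 1584 CPM with 4OHT and 1779, 1638 and 1807 CPM with EtOH. It fell by 10.9% with no overlap (log2 fold change -0.17, SE 0.03, edgeR adjusted p = 3.71e-07). ND1 averaged 3218 ± 95.5 CPM with 4OHT and 3448 ± 98.0 CPM with EtOH and fell by 6.7% (edgeR adjusted p = 9.14e-04). ND4 averaged 1259 ± 78.9 CPM with 4OHT and 1364 ± 8.06 CPM with EtOH and fell by 7.6% (edgeR adjusted p = 9.28e-04). These 4 falls were called in all 15 settings of scaling, filter, test and libraries, though none reached 1.2-fold.

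COX1, the catalytic subunit of complex IV and the most abundant member per length (6596 CPM per kilobase with 4OHT and 6927 with EtOH), had 10281, 9809 and 10484 CPM with 4OHT and 10794, 10408 and 10906 CPM with EtOH. Its values overlapped and it fell by 4.8% (edgeR adjusted p = 0.0072), a call lost without 4OHT replicate 2, EtOH replicate 1 or EtOH replicate 3, with log2 fold changes of -0.04, -0.06 and -0.06. ND5 had 1541, 1566 and 1707 CPM with 4OHT and 1779, 1579 and 1718 CPM with EtOH, which overlapped. Its log2 fold change of -0.08 missed the threshold (edgeR adjusted p = 0.077) but was called at -0.12 without 4OHT replicate 3, at -0.12 without EtOH replicate 2, and over all 6 libraries with limma-voom (-0.07), upper quartile factors (-0.11) and length offsets (-0.10). ND6, the only protein-coding gene on the other strand of the circle, averaged 396 ± 46.1 CPM with 4OHT and 443 ± 41.9 CPM with EtOH, with a 95% interval of the log2 fold change from -0.49 to 0.18 (edgeR adjusted p = 0.39); without EtOH replicate 2 it was called at -0.23, and by limma-voom over all 6 libraries at -0.15.

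Of the remaining 6 mitochondrial genes 5 had almost no counts, although each encodes a core subunit. COX2, which receives electrons from cytochrome c, had 6, 0 and 7 counts with 4OHT and 8, 6 and 8 with EtOH. COX3 had 9, 4 and 12 counts with 4OHT and 11, 18 and 8 with EtOH. ATP6, the proton channel subunit of the ATP synthase, had 2, 1 and 5 counts with 4OHT and 3, 3 and 5 with EtOH. ATP8 had 2, 0 and 1 counts with 4OHT and none with EtOH, and ND4L at most 4 counts in any library. None of these 5 could be tested, and they lie between COX1 and ND4 on the same precursor as abundant COX1 and ND4.

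ND3 was the exception among the low genes, with 122, 78 and 115 counts with 4OHT and 73, 63 and 33 with EtOH. It rose 1.53-fold (log2 fold change 0.61, SE 0.19, edgeR adjusted p = 0.012), although the groups overlapped in CPM. The call was lost without 4OHT replicate 1 (log2 fold change 0.37), without EtOH replicate 3 (0.40) and in DESeq2.

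The low mitochondrial genes other than ATP8 share their sequence with a listed gene model in nuclear DNA, and no such model was found for ATP8. On chromosome 1, GENCODE vM21 lists gene models Gm29216, Gm28661, Gm10925, Gm28437, Gm28438, Gm10222 and Gm28439 between bases 24611535 and 24616197 of GRCm38. They match parts of COX1, COX2, ATP6, COX3, ND3, ND4L and ND4 in the order of the mitochondrial genome. The copies of COX2, ATP6, COX3 and ND4L had no difference from the mitochondrial gene over the bases placed, and that of ND3 had 1 in 345 (T3C, counted from the first base of the mitochondrial gene, whose base comes first). The first 60 bases of both are shown because they hold the only base that tells the gene from its copy over the part placed, with the differing base in capitals.
ND3: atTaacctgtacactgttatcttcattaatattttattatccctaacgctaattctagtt
Gm28438: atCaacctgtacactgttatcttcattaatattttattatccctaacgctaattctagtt

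Of all 50-base windows in a gene's transcripts, 100% were also found in another gene model for COX2, 99.9% for COX3, 99.5% for ATP6, 98.8% for ND4L and 98.0% for ND3. The share was 62.2% for ND4, of which the copy covers the first 876 of 1378 bases, and 51.1% for COX1. It was 8.19% for ND2 and 7.61% for ND5, and 0 for ND1, CYTB and ND6. ATP8 shared none and was low, but only transcripts of listed gene models were searched, so a copy outside them would be missed. The ATP8 gene starts between COX2 and ATP6 on mitochondrial DNA. On chromosome 1 the copy of ATP6 ends at base 24614651 and that of COX2 starts at 24614885. Whether the bases between them hold a copy of ATP8 was not tested. How the authors counted reads that match several places is not given in the sources used here, and the part of such reads in these levels was not tested. Values of the genes with a high share, ND3 among them, are therefore uncertain.

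**Figure D2:**
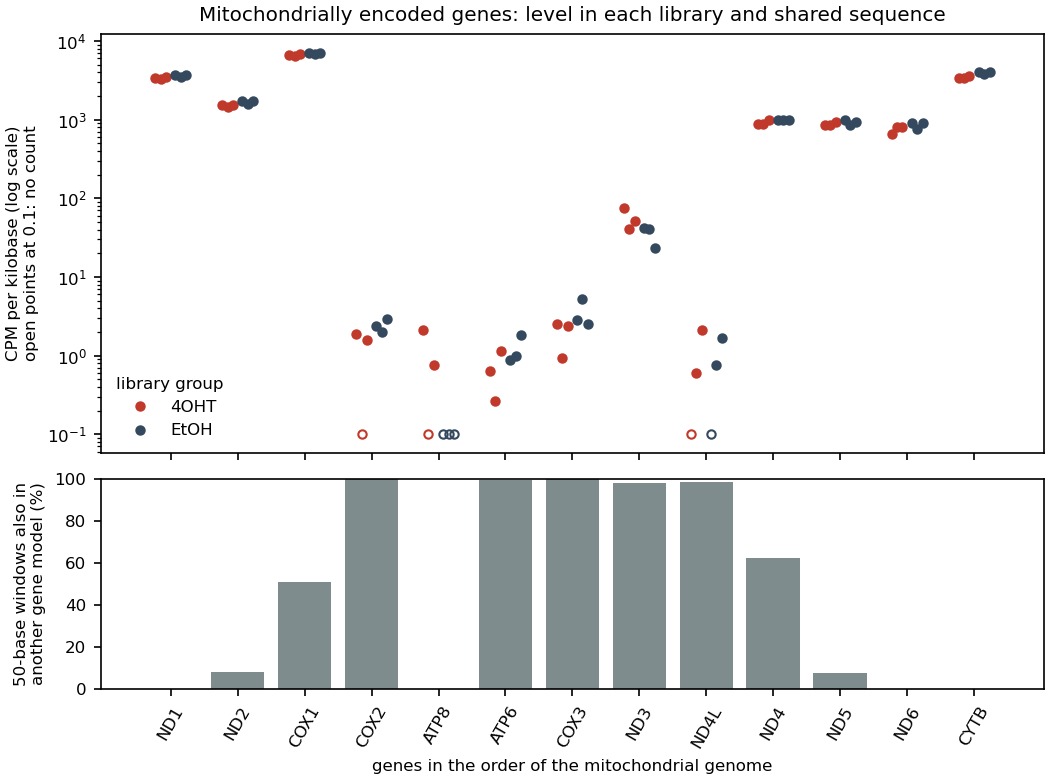
Upper panel: level of each mitochondrially encoded gene in each library, in CPM per kilobase on a log axis, with 4OHT left of EtOH and open points at 0.1 where a library had no count. Lower panel: percent of 50-base windows that also occur in another gene model. COX2, ATP6, COX3, ND3 and ND4L are low and share between 98.0% and 100% of their windows. ATP8 is low and shares none with a listed gene model, and copies outside gene models were not searched.

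Complex I, the NADH dehydrogenase, had the most nuclear members. Of its 36 main nuclear subunits all were tested, 7 fell (19.4%, beside 20.6% of all genes), 1 rose (2.78%, beside 21.4%) and 28 were not called. Their summed level was 2663 ± 72.5 CPM with 4OHT and 2769 ± 66.8 CPM with EtOH, and the 3 values overlapped. Among the 7 nuclear core subunits, which carry the flavin and iron-sulfur clusters, 3 fell (42.9%) and all 7 had a log2 fold change below 0. Among the 29 accessory subunits 4 fell (13.8%) and 1 rose (3.45%). Of all tested genes 20.6% fell and 21.4% rose, and the difference between core and accessory subunits was not tested.

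The core subunits that fell were Ndufv1, Ndufv2 and Ndufs3. Ndufv1, which binds NADH and the flavin, had 173, 164 and 158 CPM with 4OHT and 180, 177 and 178 CPM with EtOH, with no overlap (log2 fold change -0.12, edgeR adjusted p = 0.036). Ndufv2, its iron-sulfur partner, had 102, 110 and 106 CPM with 4OHT and 120, 119 and 115 CPM with EtOH, also with no overlap (log2 fold change -0.15, edgeR adjusted p = 0.024). Ndufs3, a core subunit near the quinone site, had 39.5, 37.5 and 32.5 CPM with 4OHT and 44.3, 38.2 and 46.5 CPM with EtOH. The groups of Ndufs3 overlapped, and the call (log2 fold change -0.25, edgeR adjusted p = 0.026) was lost without 4OHT replicate 3 (-0.16), EtOH replicate 1 (-0.22) or EtOH replicate 3 (-0.19). Leaving out 5 of the 6 libraries in turn cost Ndufv1 its call, 4OHT replicate 1 being the exception, and leaving out 4OHT replicate 1 or 3, or EtOH replicate 1 or 2, cost Ndufv2 its call, with log2 fold changes between -0.15 and -0.09 for Ndufv1 and between -0.18 and -0.13 for Ndufv2. Ndufs1, Ndufs7 and Ndufs8, also core subunits, did not pass the test and had log2 fold changes of -0.05, -0.17 and -0.08. Ndufv1, Ndufv2 and Ndufa7 below were singled out after their values were seen.

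Ndufa6, an accessory subunit of the arm that reaches into the matrix, showed the largest fall among called members. It had 17.1, 18.4 and 15.3 CPM with 4OHT and 27.0, 23.3 and 23.4 CPM with EtOH, with no overlap (chr15:82350139-82354291). The log2 fold change was -0.55 (SE 0.13, edgeR adjusted p = 2.05e-04), a fall of 31.5%, and it was called in every setting tried. Ndufa5, of the same arm, had 31.2, 34.1 and 32.5 CPM with 4OHT and 36.2, 39.3 and 45.3 CPM with EtOH (log2 fold change -0.29, edgeR adjusted p = 0.0097). Its groups did not overlap, but the call was lost without EtOH replicate 3 (-0.21). Ndufb2, in the membrane arm, had 36.5, 39.0 and 34.2 CPM with 4OHT and 37.9, 48.2 and 44.5 CPM with EtOH, which overlapped (log2 fold change -0.25, edgeR adjusted p = 0.024). Its call was lost without 4OHT replicate 1 (-0.25), 4OHT replicate 3 (-0.19), EtOH replicate 2 (-0.17) or EtOH replicate 3 (-0.23). Ndufa7 fell without overlap, with 132, 132 and 122 CPM with 4OHT and 140, 150 and 155 CPM with EtOH (log2 fold change -0.21, SE 0.05, edgeR adjusted p = 4.68e-04).

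Ndufa3, an accessory subunit beside the membrane arm's ND1, was the single nuclear complex I member that rose. It had 44.1, 48.9 and 45.3 CPM with 4OHT and 39.3, 32.1 and 39.6 CPM with EtOH, with no overlap (chr7:3617347-3620165; log2 fold change 0.32, SE 0.09, edgeR adjusted p = 0.0025). Without EtOH replicate 2 the call was lost at 0.23. The remaining accessory subunits had log2 fold changes on both sides of 0. Of the 5 complex I rows that are copy genes, such as Ndufb4c and Ndufs6b, 2 could be tested and neither was called.

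Nuclear assembly factors of complex I are proteins that help build it without staying in it. All 8 in the rule, Ndufaf1 to Ndufaf8, were tested, 3 fell and 0 rose (37.5% lower, beside 20.6% of all genes lower and 21.4% higher; 4 had an unadjusted edgeR p under 0.05, all lower), with a median log2 fold change of -0.27. Ndufaf4 had 28.4, 31.0 and 33.1 CPM with 4OHT and 38.7, 42.5 and 40.6 CPM with EtOH, well apart (chr4:24898083-24905001). Its log2 fold change was -0.38 (SE 0.10, edgeR adjusted p = 5.79e-04) and it was called in every setting tried. Ndufaf8 averaged 8.44 ± 1.54 CPM with 4OHT and 11.6 ± 2.02 CPM with EtOH (log2 fold change -0.45, edgeR adjusted p = 0.038), and was lost without 4OHT replicate 2 (-0.31), EtOH replicate 1 (-0.49) or EtOH replicate 2 (-0.31). Ndufaf6 averaged 13.3 ± 2.25 CPM with 4OHT and 17.2 ± 0.693 CPM with EtOH (log2 fold change -0.36, edgeR adjusted p = 0.045), and kept its call in 1 of 6 cases when a library was left out, without 4OHT replicate 3, at values between -0.52 and -0.25 over the 6 cases.

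Complex II, succinate dehydrogenase, is the enzyme shared with the citric acid cycle. Sdha, its flavoprotein, had 324, 318 and 298 CPM with 4OHT and 301, 284 and 291 CPM with EtOH, which overlapped. It rose by a log2 fold change of 0.10 (SE 0.04, edgeR adjusted p = 0.042), a call lost without 4OHT replicate 1 (0.08), 4OHT replicate 2 (0.09), EtOH replicate 2 (0.08) or EtOH replicate 3 (0.10). Over all 6 libraries the call was also lost with DESeq2 size factors (0.09), upper quartile factors (0.06) and length offsets (0.07). It was lost too with limma-voom (0.09) and DESeq2's test (0.10). Sdhb, the iron-sulfur subunit, had 93.1, 96.7 and 98.1 CPM with 4OHT and 102, 107 and 107 CPM with EtOH. The 4OHT values of Sdhb were all lower, but the difference did not pass the test (edgeR adjusted p = 0.073, log2 fold change -0.13). Sdhc, a membrane anchor, averaged 128 ± 5.08 CPM with 4OHT and 123 ± 2.86 CPM with EtOH and was not called, with a 95% interval of the log2 fold change from -0.05 to 0.17. Levels per kilobase of these 3 subunits ran between 89.3 CPM for Sdhb and 109 CPM for Sdha with 4OHT, and between 98.1 CPM for Sdhb and 105 CPM for Sdhc with EtOH. Sdhd, the other membrane anchor, had 2, 1 and 0 counts with 4OHT and 3, 1 and 0 with EtOH, although none of its windows occurred in another gene model.

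Among nuclear rows, complex III and cytochrome c gave a single call. Of 9 nuclear rows of complex III 8 were tested, 1 fell (12.5%, beside 20.6% of all genes) and 0 rose (beside 21.4%; with an unadjusted edgeR p under 0.05, 3 of the 8), and the summed level was 1165 ± 39.6 CPM with 4OHT and 1184 ± 14.4 CPM with EtOH. Uqcrq, a small subunit next to cytochrome b, had 105, 96.7 and 87.3 CPM with 4OHT and 112, 105 and 105 CPM with EtOH (log2 fold change -0.17, edgeR adjusted p = 0.019). The highest 4OHT library reached the EtOH range, and the call was lost without 4OHT replicate 3 (-0.09) or EtOH replicate 1 (-0.14). Cyc1, the heme protein that passes electrons on to cytochrome c, averaged 190 ± 9.67 CPM with 4OHT and 191 ± 4.19 CPM with EtOH, with a 95% interval of the log2 fold change from -0.10 to 0.08. Cycs, cytochrome c itself, had only 14, 18 and 29 counts with 4OHT and 15, 27 and 21 with EtOH, too few to resolve its log2 fold change of -0.35 (SE 0.29, edgeR adjusted p = 0.34). Part of the Cycs row is uncertain, since 28.5% of its windows occur in other gene models. Uqcr11 had 2 counts in each of 2 libraries and none in the rest.

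Complex IV, cytochrome c oxidase, held the clearest rises. Of its 11 main nuclear subunits 2 rose (18.2%, beside 21.4% of all genes) and 3 fell (27.3%, beside 20.6%). Their summed level was 1908 to 2019 CPM with 4OHT and 1804 to 1882 CPM with EtOH, without overlap. The sum does not stand for each subunit, since the median log2 fold change of the 11 was -0.006, with 6 below 0 and 5 above. Cox4i1, the largest nuclear subunit and a site where ATP regulates the enzyme, had 517, 527 and 508 CPM with 4OHT and 400, 400 and 433 CPM with EtOH (chr8:120668225-120674209). The groups were far apart relative to their spread, and Cox4i1 rose 1.26-fold (log2 fold change 0.33, SE 0.04, edgeR adjusted p = 1.76e-15). Cox5a, a matrix subunit that contacts Cox4i1, had 247, 252 and 236 CPM with 4OHT and 202, 196 and 182 CPM with EtOH (chr9:57517328-57532427). It also rose 1.26-fold without overlap (log2 fold change 0.34, SE 0.04, edgeR adjusted p = 1.22e-11). Both rises were called in every setting tried. Emc8, on the opposite strand over 9.94% of the Cox4i1 exon bases, had a log2 fold change of 0.09 (edgeR adjusted p = 0.13).

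**Figure D3:**
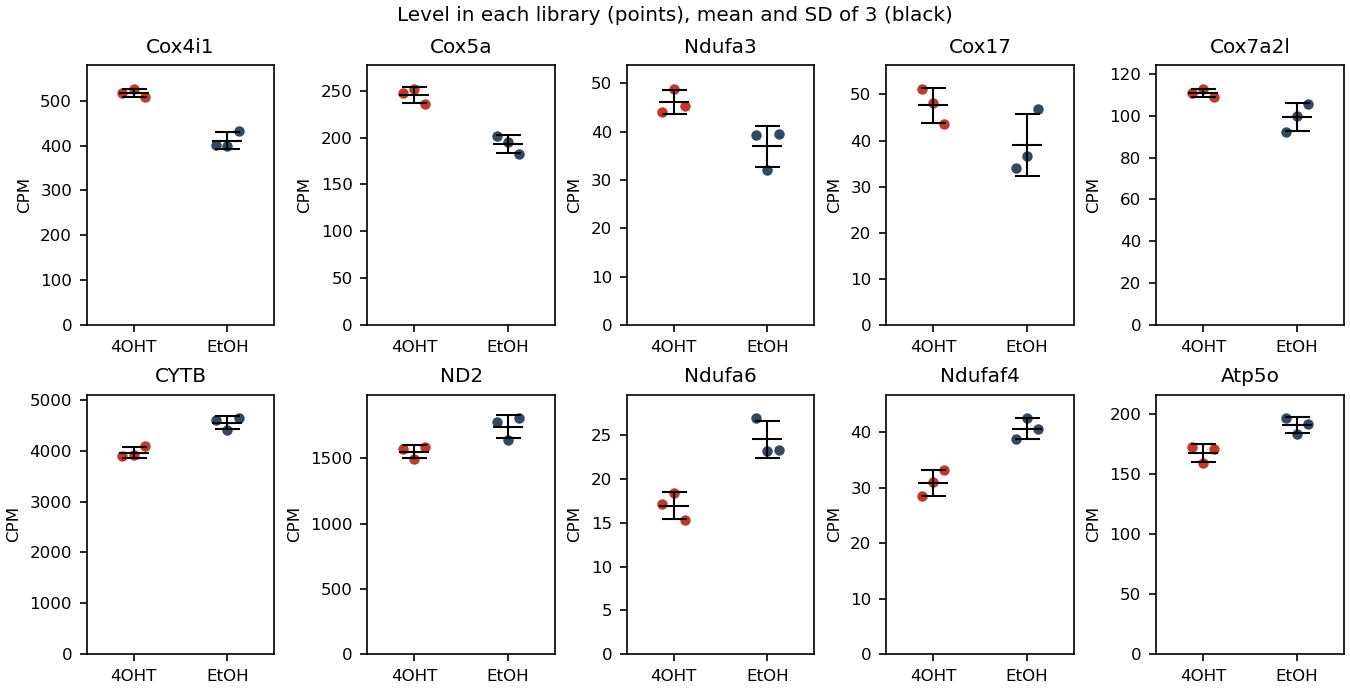
CPM in each library for 5 members that rose (upper row) and 5 that fell (lower row), with 4OHT left of EtOH and the mean and SD of 3 libraries in black. For Cox4i1, Cox5a, Ndufa3, Cox7a2l, CYTB, ND2, Ndufa6, Ndufaf4 and Atp5o the 3 points of each group do not overlap, and for Cox17 they do.

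The nuclear subunits of complex IV that fell are small proteins with a single membrane helix. Cox7b had 187, 186 and 178 CPM with 4OHT and 200, 203 and 209 CPM with EtOH, with no overlap (log2 fold change -0.15, SE 0.05, edgeR adjusted p = 0.0040), and was called in all 15 settings, though the fall was under 1.2-fold. Cox7c had 73, 83 and 96 counts with 4OHT and 107, 87 and 72 with EtOH, which gave 15.3 ± 0.498 CPM with 4OHT and 19.6 ± 1.92 CPM with EtOH (log2 fold change -0.37, edgeR adjusted p = 0.024), with no overlap in CPM. Its call was lost without 4OHT replicate 2 (-0.36), 4OHT replicate 3 (-0.36) or EtOH replicate 1 (-0.30), and 48.2% of its windows occur in other gene models. Cox6c had 116, 134 and 119 CPM with 4OHT and 133, 123 and 150 CPM with EtOH, which overlapped (log2 fold change -0.13, edgeR adjusted p = 0.047). Leaving out 4OHT replicate 1 or 3, or EtOH replicate 1 or 3, took its call away, at values of -0.09, -0.10, -0.14 and -0.06. Cox5b, Cox6a1, Cox6b1, Cox8a and Ndufa4 were not called and had log2 fold changes between -0.06 and 0.07.

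Among 9 assembly factors of complex IV in the rule, 1 rose (11.1%, beside 21.4% of all genes) and 0 fell (beside 20.6%; 2 had an unadjusted edgeR p under 0.05). Cox17, a copper chaperone, had 51.2, 48.2 and 43.6 CPM with 4OHT and 34.0, 36.6 and 46.7 CPM with EtOH. The highest EtOH library lay inside the 4OHT range, and the rise (log2 fold change 0.29, SE 0.09, edgeR adjusted p = 0.0066) was lost without 4OHT replicate 1 (0.24) or EtOH replicate 1 (0.19). Cox7a2l, which joins complexes III and IV into supercomplexes, had 111, 113 and 109 CPM with 4OHT and 92.2, 99.9 and 106 CPM with EtOH, with no overlap (log2 fold change 0.16, edgeR adjusted p = 0.018). Without EtOH replicate 1 the Cox7a2l call was lost at 0.11.

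Several subunits of complex IV have isoforms used in other tissues, and these were low or absent. Cox4i2, known from lung and the response to low oxygen, had at most 4 counts in a library, and its level of 0.63 CPM per kilobase in both groups compares with 761 for Cox4i1 with 4OHT and 605 with EtOH. The muscle forms Cox6a2 and Cox8b and the testis form Cox8c had no counts in any library. Cox6b2, a testis form, was present at 39.1 CPM per kilobase with 4OHT and 45.3 with EtOH, beside 333 and 319 for Cox6b1. Cox7a1, the muscle form, had 10.1 and 9.19 CPM per kilobase with 4OHT and EtOH, and Cox7a2, the main form elsewhere, had 4.59 and 4.31. Both rows were low, with at most 29 counts in a library, although none of the Cox7a2 windows occurred in another gene model. Why the Cox7a2 row was low was not tested. Ndufa4l2, known as a gene of low oxygen, had 5.04 CPM per kilobase with 4OHT and 4.03 with EtOH, beside 325 and 334 for Ndufa4. None of the 3 isoforms Cox6b2, Cox7a1 and Ndufa4l2 was called.

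Complex V, the ATP synthase, had 17 nuclear rows, all tested, of which 3 fell (17.6%, beside 20.6% of all genes) and 0 rose (5 had an unadjusted edgeR p under 0.05). Its summed level was 4910 to 4990 CPM with 4OHT and 5119 to 5261 CPM with EtOH, without overlap. Atp5o, the stalk protein that holds the catalytic head in place, had 173, 160 and 171 CPM with 4OHT and 197, 184 and 192 CPM with EtOH, with no overlap. It fell by 12.2% (log2 fold change -0.19, SE 0.05, edgeR adjusted p = 4.97e-04), and 35.6% of its exon bases lie under another gene model on the opposite strand. Atp5a1, the alpha subunit of the head, had 1296, 1310 and 1323 CPM with 4OHT and 1419, 1380 and 1418 CPM with EtOH (log2 fold change -0.10, SE 0.03, edgeR adjusted p = 0.0025). Atp5c1, the central shaft, averaged 267 ± 2.31 CPM with 4OHT and 291 ± 6.34 CPM with EtOH (log2 fold change -0.12, edgeR adjusted p = 0.011), and was lost without EtOH replicate 2 (-0.11). Groups of neither gene overlapped. Atp5b, the catalytic beta subunit and the highest nuclear member at 1044 CPM per kilobase with 4OHT and 1084 with EtOH, did not pass the test (edgeR adjusted p = 0.12, log2 fold change -0.05).

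The identical membrane ring subunit c of complex V is encoded by 3 genes. Atp5g3 gave most of it, with 373 CPM per kilobase with 4OHT and 362 with EtOH, against 42.7 and 49.1 for Atp5g1 and 8.04 and 6.11 for Atp5g2. None of the 3 was called, and the 95% interval of the log2 fold change was -0.04 to 0.12 for Atp5g3, -0.39 to -0.02 for Atp5g1 and -0.13 to 0.95 for Atp5g2. In the Atp5g1 row 56.2% of windows occur in other gene models, and in the Atp5g2 row 46.4%. Atp5l, another membrane subunit, was low at 4.86 CPM per kilobase with 4OHT and 6.04 with EtOH, and 68.5% of its windows occur elsewhere.

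The members are short genes, and fold changes followed gene length across the whole comparison. Median length was 688.5 bases over all 122 members and 2879 over all tested genes, and 72 of the 107 tested members (67.3%) fell in the shortest of 10 equal bins, of up to 1125 bases. The median log2 fold change over all genes of that bin was -0.10, with 9.72% called higher and 25.0% lower, and over the 72 members in it -0.06, with 5 higher and 14 lower. In the longest bin the median of all genes was 0.07. With offsets for length the median was -0.04 over members and -0.03 over all genes, and 6 of the 7 rises and 14 of the 22 falls were called again. CYTB, ND1, ND2, ND4, Cox4i1, Cox5a, Ndufa6 and Atp5o were among those. The falls Ndufa5, Ndufb2, Ndufs3, Ndufaf6, Ndufaf8, Uqcrq, Cox6c and Cox7c and the rise Sdha were not called with the offsets. What lies behind the length trend was not tested.

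**Figure D4:**
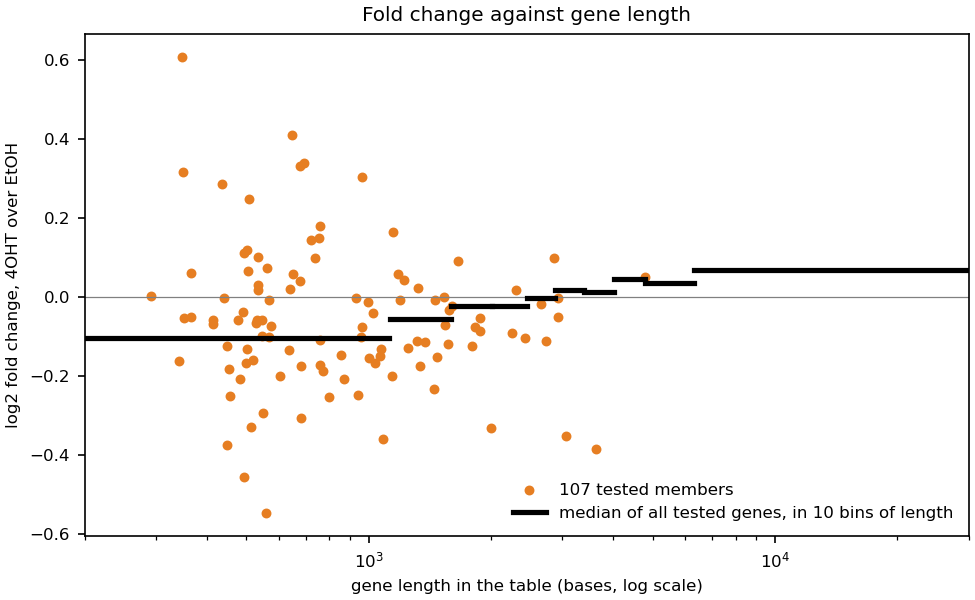
Log2 fold change, 4OHT over EtOH, against gene length in bases on a log axis. Orange points are the 107 tested members, and black bars are medians of all tested genes in 10 bins of length, which run between -0.10 for the shortest and 0.07 for the longest.

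Genes that copy, transcribe and process mitochondrial DNA fell more often than they rose. Of 31 such genes followed, all tested, 13 fell (41.9%, beside 20.6% of all genes), 1 rose and 17 were not called, with a median log2 fold change of -0.17. Ssbp1, which binds single-stranded mitochondrial DNA during copying, had 62.1, 62.6 and 57.5 CPM with 4OHT and 94.7, 83.6 and 92.5 CPM with EtOH. The groups were well apart, and Ssbp1 fell by a log2 fold change of -0.58 (SE 0.07, edgeR adjusted p = 1.71e-13). Tfam, which packages the genome and starts its transcription, had 88.1, 88.7 and 93.1 CPM with 4OHT and 120, 115 and 114 CPM with EtOH (log2 fold change -0.37, SE 0.06, edgeR adjusted p = 2.75e-08). Top1mt, a topoisomerase, averaged 7.42 ± 1.48 CPM with 4OHT and 11.7 ± 1.2 CPM with EtOH (log2 fold change -0.65, edgeR adjusted p = 0.00275). Those 3 were called in every setting tried.

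In the same list the elongation factor Tefm, the nuclease Mgme1 and the helicase Twnk fell, with log2 fold changes of -0.48, -0.43 and -0.29. Elac2 and Trmt10c, of the machinery that cuts tRNAs out of the precursor, fell by -0.30 and -0.31 on the log2 scale. Pnpt1, of the RNA-degrading machinery, fell by -0.28 and Lrpprc, which stabilises mitochondrial mRNAs, by -0.14 on the log2 scale, although Lrpprc was lost without EtOH replicate 2 (-0.11). The remaining falls were Tfb1m, Hsd17b10 and Prorp. They lost their calls in 5, 3 and 1 of 6 cases when a library was left out. Values over those cases were -0.32 to -0.23, -0.27 to -0.16 and -0.34 to -0.23. DESeq2's test called neither Tfb1m nor Hsd17b10 (DESeq2 adjusted p = 0.16 and 0.097). The mitochondrial RNA polymerase Polrmt was not called (log2 fold change -0.15). Mterf4, which acts on the mitochondrial ribosome, was the rise, at a log2 fold change of 0.23 (edgeR adjusted p = 0.047), and its call was lost in 5 of 6 cases when a library was left out, EtOH replicate 3 being the exception, at values between 0.19 and 0.29 over the 6. Genes of this list other than Ssbp1, Top1mt and Mterf4 were singled out after their values were seen, and no test of the list as a whole was made.

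**Figure D5:**
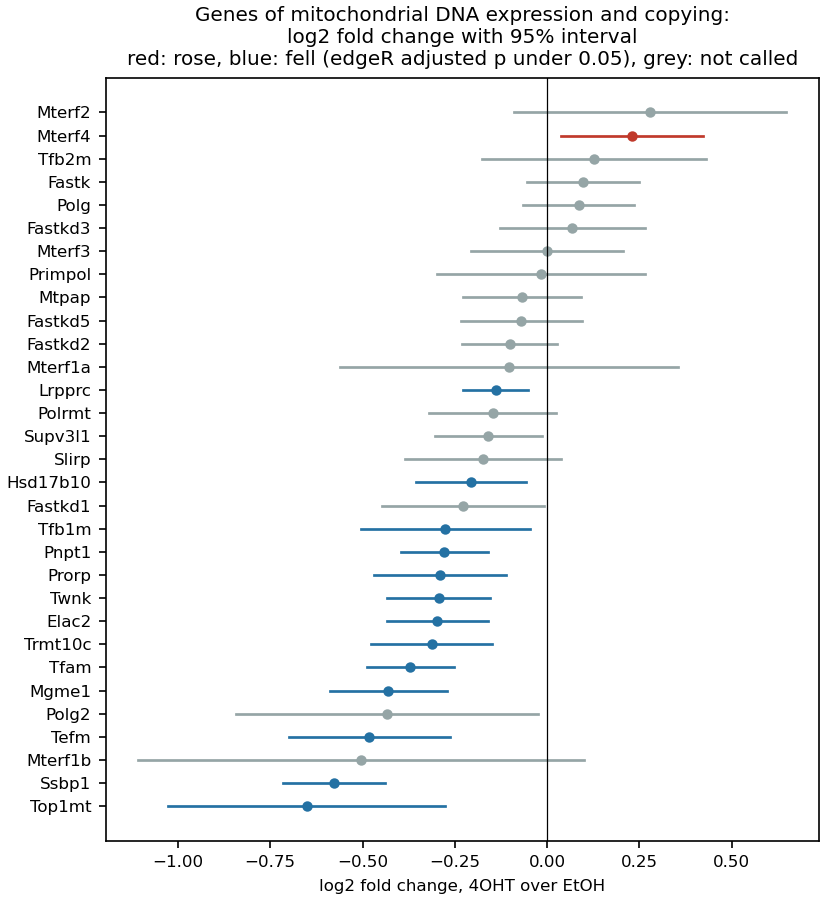
Log2 fold change, 4OHT over EtOH, with its 95% interval for the 31 genes of mitochondrial DNA expression and copying. 25 points lie below 0, 13 of them called lower (blue), and 1 gene, Mterf4, is called higher (red).

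Other genes of the pathway gave mixed counts. Of 39 tested assembly factors outside the rule 2 rose (5.13%, beside 21.4% of all genes) and 5 fell (12.8%, beside 20.6%). Hccs, which attaches heme to cytochrome c, averaged 39.3 ± 4.12 CPM with 4OHT and 30.3 ± 1.01 CPM with EtOH and rose (log2 fold change 0.37, edgeR adjusted p = 0.0013). Ecsit, an assembly factor of complex I, averaged 30.1 ± 4.52 CPM with 4OHT and 42.7 ± 1.64 CPM with EtOH and fell (log2 fold change -0.49, edgeR adjusted p = 7.66e-06). Atpaf2, which helps build the head of complex V, rose at 0.28 and Tmem177, which acts on COX2, fell at -0.39, each losing its call in 4 of 6 cases when a library was left out, at values between 0.24 and 0.34 for Atpaf2 and between -0.55 and -0.30 for Tmem177. Atpaf2 kept its call without 4OHT replicate 2 and without EtOH replicate 3, and Tmem177 without 4OHT replicate 3 and without EtOH replicate 2.

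Coenzyme Q, the lipid that carries electrons to complex III, is made by 13 genes followed here, all tested, of which 2 fell (15.4%, beside 20.6% of all genes) and 0 rose (beside 21.4%; 2 had an unadjusted edgeR p under 0.05). Coq8a averaged 8.50 ± 1.35 CPM with 4OHT and 12.8 ± 0.704 CPM with EtOH (log2 fold change -0.57, edgeR adjusted p = 0.0057). Coq2 fell at -0.26 (edgeR adjusted p = 0.026) and lost its call without 4OHT replicate 1, 4OHT replicate 3, EtOH replicate 1 or EtOH replicate 2, at values between -0.27 and -0.19. Of 14 tested genes for other entries of electrons and for use of the gradient, 3 rose (21.4%, the share over all genes) and 2 fell (14.3%, beside 20.6%). The ADP/ATP carriers followed here, Slc25a4 and Slc25a5, which exchange the product of complex V, were called in opposite directions. Slc25a4 had 245, 263 and 245 CPM with 4OHT and 198, 192 and 194 CPM with EtOH (log2 fold change 0.37, SE 0.04, edgeR adjusted p = 1.91e-13). Slc25a5 had 469, 472 and 470 CPM with 4OHT and 619, 624 and 636 CPM with EtOH (log2 fold change -0.41, SE 0.04, edgeR adjusted p = 5.60e-24). Etfdh, which feeds electrons of fatty acid oxidation into coenzyme Q, rose at 0.37 (edgeR adjusted p = 0.0013), and Dhodh, the chain's link to pyrimidine synthesis, fell at -0.22 (edgeR adjusted p = 0.022) but not without 4OHT replicate 1 (-0.20), 4OHT replicate 2 (-0.20) or EtOH replicate 1 (-0.21).

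Of 11 tested transcription factors and coactivators known to act on respiratory genes 2 rose and 2 fell, 18.2% each way beside 21.4% and 20.6% of all genes. Foxo3 averaged 44.5 ± 4.15 CPM with 4OHT and 34.7 ± 3.16 CPM with EtOH (log2 fold change 0.36, edgeR adjusted p = 8.03e-04). Ppargc1b, a coactivator, averaged 10.1 ± 0.476 CPM with 4OHT and 7.25 ± 1.70 CPM with EtOH (log2 fold change 0.47, edgeR adjusted p = 0.045), and kept its call in 1 of 6 cases when a library was left out, without EtOH replicate 2, at values between 0.34 and 0.65 over the 6. Gabpb1, the partner subunit of the factor GABPA, fell at -0.25 (edgeR adjusted p = 0.0057) but not without 4OHT replicate 3 (-0.18), and Sp1 fell at -0.12 (edgeR adjusted p = 0.0096) but not without EtOH replicate 3 (-0.11). Nrf1 and Gabpa were not called, and Ppargc1a had no counts.

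Promoters of the members were searched for the letters of known binding sites. RefSeq for GRCm38.p6 gave 300-base windows, 250 before and 50 after a start, for 86 of the 122 members. The E-box CACGTG, the sequence Tfe3 is known to bind, was in 6 members (6.98%), beside 8.09% of 27025 genes with a window. It was in 0 of the 4 members with a window that rose and in 2 of the 13 that fell, Ndufa7 and Ndufv1. On either strand, the NRF1 site, a palindrome spelled by the first capitals of the Cox6a1 window below, was in 8.14% of members and 1.07% of all genes, the GABPA site CCGGAAG in 27.9% and 9.93%, the YY1 site AAGATGGCG in 10.5% and 1.64%, and the ERR site TCAAGGTCA in 2.33% and 0.466%. Among genes that passed the count filter, the shares were 12.2% for the E-box, 2.42% for NRF1, 20.9% for GABPA, 3.76% for YY1 and 0.322% for ERR. None of the 4 windows of members that rose held any of the 5 motifs.

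Windows are shown for Cox5a, a clear rise with none of the motifs, for Ndufa7, a fall with an E-box, for Cox6a1, an uncalled subunit with an NRF1 and a GABPA site, and for Atp5g3, an uncalled subunit with an E-box and an ERR site. They run 5′ to 3′ on the gene's strand, at chr9:57520982-57521281 (plus), chr17:33824322-33824621 (plus), chr5:115348909-115349208 (minus) and chr2:73911277-73911576 (minus) of GRCm38.p6, with motif matches in capitals. The second match in Cox6a1 and in Atp5g3 is the reverse complement of the motif. The Cox5a and Atp5g3 windows lie inside the spans of their genes, so the upstream ends of those spans were not searched. A match is a description of the letters, and binding was not measured.
Cox5a: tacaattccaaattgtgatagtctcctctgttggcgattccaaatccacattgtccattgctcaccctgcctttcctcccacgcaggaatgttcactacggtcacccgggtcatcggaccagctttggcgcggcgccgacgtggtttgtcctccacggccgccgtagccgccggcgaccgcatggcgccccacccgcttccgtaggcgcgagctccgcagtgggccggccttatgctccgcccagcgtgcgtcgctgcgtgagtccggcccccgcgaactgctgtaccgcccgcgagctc
Ndufa7: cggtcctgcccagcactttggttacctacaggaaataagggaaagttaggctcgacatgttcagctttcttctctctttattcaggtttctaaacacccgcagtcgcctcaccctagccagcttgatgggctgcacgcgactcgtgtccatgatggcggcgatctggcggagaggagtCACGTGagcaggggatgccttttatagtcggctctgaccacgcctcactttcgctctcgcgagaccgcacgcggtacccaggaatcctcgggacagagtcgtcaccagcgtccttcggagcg
Cox6a1: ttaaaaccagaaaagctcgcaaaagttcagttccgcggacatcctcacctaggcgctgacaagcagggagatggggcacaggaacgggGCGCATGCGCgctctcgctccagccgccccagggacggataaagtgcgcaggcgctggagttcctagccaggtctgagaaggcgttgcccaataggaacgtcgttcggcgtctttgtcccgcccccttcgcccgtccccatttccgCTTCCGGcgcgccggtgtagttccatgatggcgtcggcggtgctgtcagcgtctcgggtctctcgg
Atp5g3: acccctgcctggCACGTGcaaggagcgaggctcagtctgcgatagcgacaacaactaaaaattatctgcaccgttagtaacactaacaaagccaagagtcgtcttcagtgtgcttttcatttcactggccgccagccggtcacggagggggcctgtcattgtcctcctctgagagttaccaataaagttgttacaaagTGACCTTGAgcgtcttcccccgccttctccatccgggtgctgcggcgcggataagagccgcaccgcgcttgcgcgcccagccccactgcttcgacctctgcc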

How the data were processed

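The authors deposited a single table of raw counts, whole reads per gene and library, that also lists each gene's length. Per the submitters' processing notes they used fastp, STAR, featureCounts and mm10. Their versions, the annotation, the strand setting and the handling of multiply matching reads: not given in the sources used here. Per the labels' protocols, libraries came from a stranded mRNA kit. The 13 mitochondrial genes carry their symbols by Entrez identifier.

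Counts were filtered with filterByExpr (minimum count 10, total 15), scaled with TMM factors and tested with edgeR 4.0.16 in R 4.3.3 (robust quasi-likelihood, Benjamini-Hochberg adjustment over 12345 genes, threshold 0.05). Fold changes are 4OHT over EtOH, CPM values use TMM-scaled library sizes, and SE is that of the log2 fold change. Intervals are at 95% and, like the floor of 3 counts, cover only what the libraries show. Every pair of replicates differed by more than counting error. On the first principal component (66.0% of the variance) the groups stood apart.

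Named were all mitochondrial members, the Sdh genes, Cyc1 and Cycs, up to 4 called rises and 4 falls with a mean log2 CPM from 2 up for each of complexes I, III, IV and V, up to 3 each way among assembly factors and 2 each way per list. The members and lists were chosen with earlier results of these data known. Shared sequence was counted as exact 50-base windows of GENCODE vM21 transcripts. Promoter windows and positions come from RefSeq on GRCm38.p6. Alternatives were DESeq2 1.42.0 size factors and test, upper quartile factors, TMM without mitochondrial genes, no filter and 1 CPM in 3 libraries, limma-voom 3.58.1, a replicate block, omission of each library in turn, a threshold of 0.01, a minimum of 1.2-fold and offsets from a loess trend on length (span 0.4). Leaving out members with shared windows was chosen after seeing the data. The steps were run on simulated counts, where 168 of 12204 genes were called, a far smaller share than in these data. There 52% of 1.25-fold and 93.9% of 2-fold changes were recovered. Tables and plots used Python 3.11.15, pandas 2.3.3 and matplotlib 3.10.9. The individual result of 1 member is not reported here.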

Additional observations from a re-analysis of the deposited data

How the results depend on the processing

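Against 7 members higher and 22 lower with 4OHT, upper quartile factors gave 36 lower, the DESeq2 test 3 higher and 12 lower, a threshold of 0.01 gave 4 and 12, and a minimum of 1.2-fold 6 lower, with 1624 of all genes lower in place of 2546. Counting only members with no shared window, chosen after seeing the data, left 4 higher and 11 lower. The median log2 fold change of nuclear members, -0.06, was -0.091 with upper quartile factors and -0.026 with length offsets. Leaving out each library gave 5 to 7 members higher, 14 to 23 lower, 2306 to 2544 of all genes higher, 2129 to 2407 lower, and medians of -0.17 to -0.09 for mitochondrial and -0.081 to -0.033 for nuclear members. Cyc1, at -0.01, turned to 0.031 without 4OHT replicate 3, 0.01 without EtOH replicate 2 and 0.0066 with length offsets, with a lowest value of -0.047 without 4OHT replicate 2. The cause was not tested beyond what each setting changes by its construction. With the replicate number as a block, 7 members were higher and 22 lower, 21 of the falls shared, and 2585 of all genes were higher and 2497 lower; same-numbered libraries did not deviate together (correlations -0.02, -0.02 and -0.02), so the numbers were not used as pairs. Among named genes the block lost Ndufv1 (edgeR adjusted p = 0.0502) and Mterf4 and called ND5 (0.0245). Of the members, upper quartile factors lost Sdha and Cox7a2l, and no filter lost COX1, Cox6c, Ndufaf6, Ndufaf8 and Ndufv1. Of 68 named genes with a call, 36 kept it under all 15 settings. Over 79 named genes, 1023 of 1185 values kept direction and side of the threshold, 150 lost the call, 9 gained it and 3 reversed. Low counts limit what rows such as Cycs, Sdhd and COX2 can show, and why these rows were low was not tested.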

Other observations

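The 3 dropped pseudogene rows were measured too. Ndufs5-ps had 26.0, 25.1 and 24.2 CPM with 4OHT and 25.0, 21.5 and 21.4 CPM with EtOH, above Ndufs5 itself at 7.26 CPM with 4OHT, of whose windows 41.2% occur in other gene models. Atp5c1-ps averaged 8.02 ± 1.38 CPM with 4OHT and 8.31 ± 0.382 CPM with EtOH, and Uqcrh-ps1 2.22 ± 1.29 CPM with 4OHT and 1.87 ± 1.12 CPM with EtOH. None of the 3 was called (edgeR adjusted p = 0.37, 0.82 and 0.56).

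The mitochondrial ribosomal RNAs took 0.0622%, 0.0606% and 0.0490% of counts in the 4OHT libraries and 0.0693%, 0.0438% and 0.0911% in the EtOH libraries. Their spread was widest among the EtOH libraries, and neither mt-Rnr1 nor mt-Rnr2 was called (edgeR adjusted p = 0.43 and 0.73).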
